A study of Homo sapiens with 6 samples.

Results

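The mitochondrial ribosomal protein genes encode the proteins of the ribosome that works inside mitochondria. They were taken from the transcript tables of 6 RNA sequencing libraries by name, as protein-coding genes called MRPL or MRPS with a number and, for some, a letter. GENCODE release 29 holds 78 such genes. Transcripts of all 78 were listed in these tables, and all 78 were among the 10475 genes tested. By name, 49 belong to the large subunit and 29 to the small subunit.

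The libraries come from 92.1 cells, a human ocular melanoma line grown in culture. The 3 control libraries, NC, have the genotype WT (wild type), and whether NC cells carry a control hairpin is not stated. The other 3, shALKBH3, have the genotype ALKBH3 knockdown, with no word on how many hairpins or clones were used. Separate cultures are not mentioned for the libraries of a group. The p-values here therefore describe the spread between these 6 libraries alone, which may be technical. Both groups were grown in the same medium and serum.

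Mitochondrial ribosomes translate the few proteins that mitochondrial DNA encodes, all of them parts of the respiratory chain and ATP synthase. Their ribosomal RNA is made in the mitochondrion, while every one of their proteins is encoded in the nucleus, made in the cytosol and imported. The large subunit joins amino acids at the peptidyl transferase centre, and the small subunit decodes the messenger RNA. Many of the proteins descend from bacterial ribosomal proteins, and others have no bacterial counterpart.

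Values are FPKM, fragment counts scaled by the authors for transcript length and library size, summed over the listed transcripts of a gene. Levels of different genes are therefore compared per length. Tests and log2 differences are on log2(FPKM + 1), shALKBH3 minus NC, which understates the change of low genes. A gene is called where limma's Benjamini-Hochberg adjusted p over all 10475 genes is under 0.05. FPKM are relative to the rest of a library, so fewer transcripts per cell and more of other transcripts cannot be told apart. The targeted gene ALKBH3, a demethylase of alkylated DNA and RNA, had a mean of 10.1 ± 0.787 FPKM in NC against 3.71 ± 0.487 FPKM in the knockdown (SD, n = 3 and 3, log2 -1.24, limma adjusted p = 0.0079). With NC replicate 1 left out, ALKBH3 missed the threshold (adjusted p = 0.051). FPKM of matched transcripts summed to between 340520 and 360890 in NC and between 326410 and 333510 in shALKBH3, and sequencing depth is unknown. Of the 7 melanocyte lineage markers looked for, only MITF was listed, and of 6 markers of blood, endothelium and epithelium none was. The tables hold no level for genes outside them.

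Stretches before the start of 4 of these genes are shown because promoters of mitochondrial ribosomal protein genes are rich in short sites bound by ETS family factors and YY1. They run from 120 bases before to 30 bases after a RefSeq start in build GRCh38.p14, with matches to CCGGAAG (ETS) and AAGATGGC (YY1) on either strand in capitals. MRPL16 (chr11:59810749-59810898, minus strand) is the gene that passed the test below, MRPL52 (chr14:22829767-22829916, plus strand) is among the 6 lowest differences, MRPL51 (chr12:6493233-6493382, minus strand) is among the most abundant and MRPS18A (chr6:43687762-43687911, minus strand) is one of the relatives of bacterial S18. They were picked from the named genes because they hold a match.
MRPL16: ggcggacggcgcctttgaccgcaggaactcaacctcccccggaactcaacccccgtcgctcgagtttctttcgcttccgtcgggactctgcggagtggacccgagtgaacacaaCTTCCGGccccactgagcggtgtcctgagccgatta
MRPL52: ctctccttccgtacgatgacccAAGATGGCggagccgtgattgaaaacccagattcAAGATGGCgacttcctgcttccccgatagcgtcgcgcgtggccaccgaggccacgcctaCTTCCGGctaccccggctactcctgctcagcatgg
MRPL51: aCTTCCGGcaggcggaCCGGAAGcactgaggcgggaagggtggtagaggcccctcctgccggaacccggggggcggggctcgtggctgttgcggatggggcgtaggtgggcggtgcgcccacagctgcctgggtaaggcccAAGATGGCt
MRPS18A: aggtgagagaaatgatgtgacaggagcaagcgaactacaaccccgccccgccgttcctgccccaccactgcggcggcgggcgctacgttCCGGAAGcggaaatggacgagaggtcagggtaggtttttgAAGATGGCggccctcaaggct

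The ETS match of MRPL16 begins 6 bases before the start and reads into it. MRPL52 holds a pair of YY1 matches, beginning 98 and 64 bases before its start, and an ETS match beginning 5 bases before it. In MRPL51 the ETS matches begin 119 and 104 bases before the start, and a YY1 match begins at base 22 after it. In MRPS18A an ETS match begins 31 bases before the start and a YY1 match at base 10 after it. RefSeq windows from 250 bases before to 50 bases after a start were found for 69 of the 78 genes, 85 windows in all, since 11 genes have several. The ETS letters were in 33 of the 85 windows (38.8%), against 18% of the 12395 windows of all tested genes and 10.3% of all 35116 windows. The YY1 letters were in 23 (27.1%), against 5.24% for tested genes and 2.89% of all windows. The NRF1 motif was in 10 windows (11.8%, against 10.6% for tested genes and 5.78% of all windows), and the E-box CACGTG in 9 (10.6%, against 9.50% and 7.26%). The median log2 difference was -0.23 in the 30 genes with an ETS match and -0.23 in the 39 without, and -0.25 in the 21 with a YY1 match and -0.22 in the 48 without. Lower at an unadjusted p under 0.05 (8.15% of all genes) were 9 of 30 against 12 of 39 for ETS, 8 of 21 against 13 of 48 for YY1, 2 of 9 against 19 of 60 for NRF1 and 5 of 9 against 16 of 60 for the E-box. Whether genes with and without a match differ was not tested. A match is a description of letters and not a bound site.

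As a family the genes were moderately expressed in the control cells. The mean level in NC ran from 3.73 FPKM (MRPL42) to 261 FPKM (MRPL33), with a median of 26.6 FPKM against 8.47 FPKM over all genes tested. Large and small subunit genes had medians of 29.9 and 26.2 FPKM. Genes with a bacterial homologue had a median of 31.0 FPKM and those without one 20.3 FPKM.

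Levels were lower in the knockdown libraries across most of the family, by small amounts. Of the 78 genes 70 had a negative log2 difference and 8 a positive one, where 51.3% of all genes tested were negative. The median log2 difference was -0.24, beside -0.01 over all genes. Single genes rarely passed: 1 of 78 fell and 0 rose in limma, against 0.477% and 1.28% of all genes called lower and higher. At an unadjusted p under 0.05 there were 27 lower (8.15% of all genes) and 0 higher (8.98% of all genes). In 31 genes every knockdown library lay below every control (12.0% of all genes), and in none did every knockdown library lie above (12.9% of all genes).

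**Figure D1:**
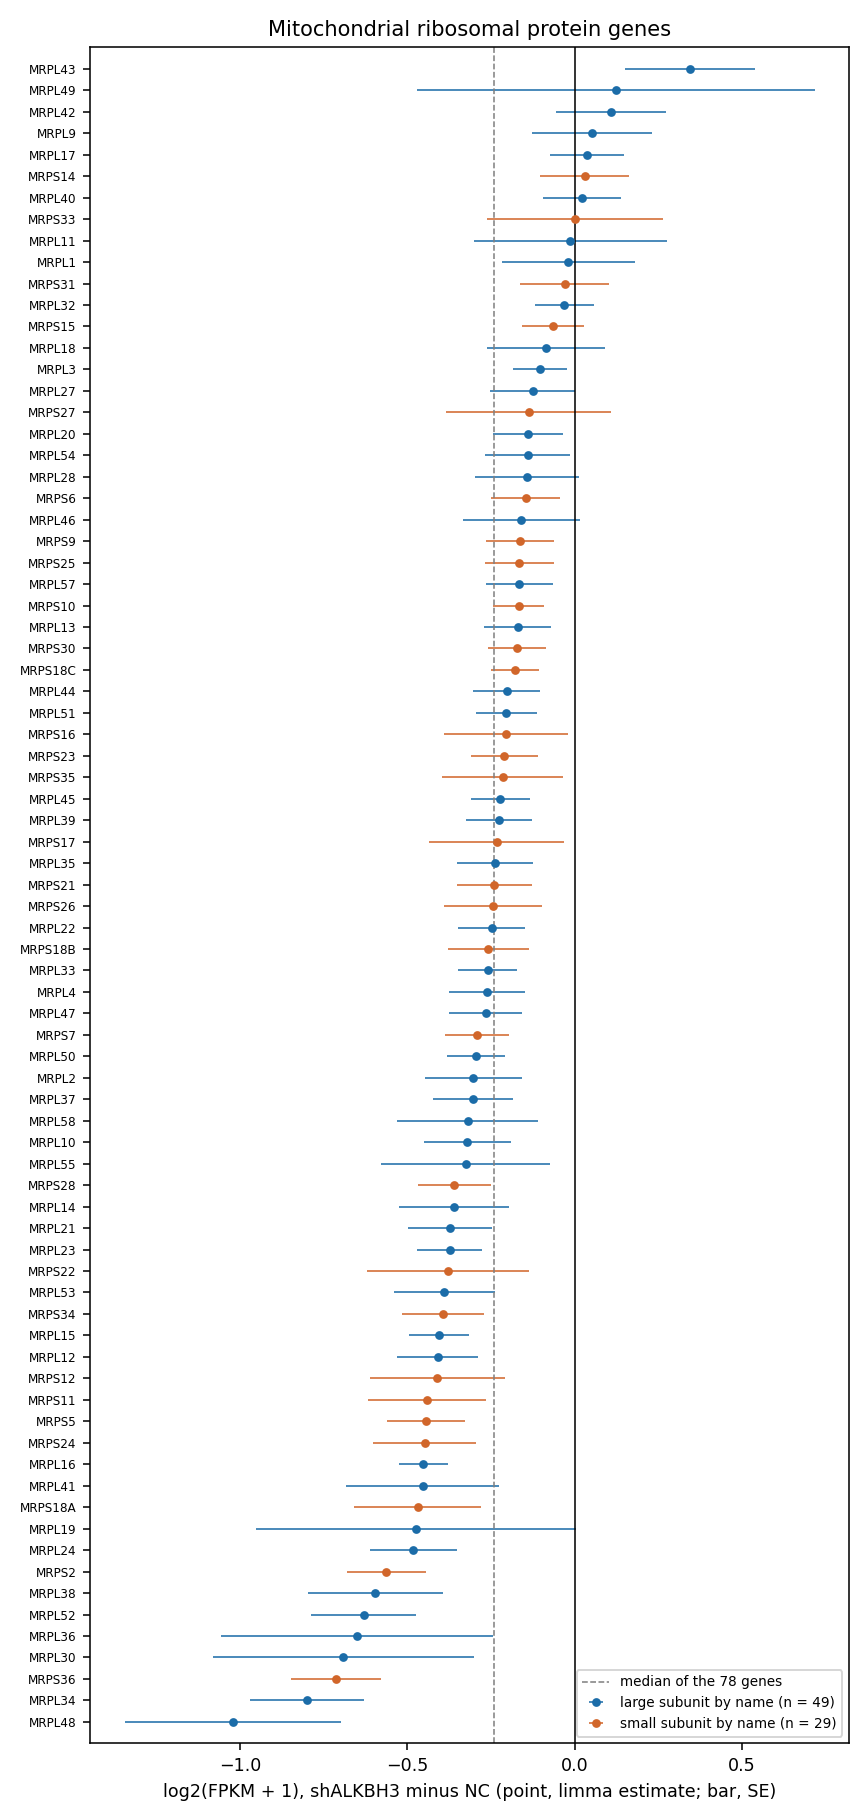
Log2 differences (horizontal axis, shALKBH3 minus NC on log2(FPKM + 1), bars are SE) of the 78 genes, sorted, with large subunit genes in blue and small subunit genes in orange. The points run from -1.02 (MRPL48) to 0.35 (MRPL43), 70 of them below 0, and the 5 highest and 2 lowest are large subunit genes.

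MRPL16, the gene that fell, encodes the relative of bacterial L16, which sits beside the transfer RNA near the peptidyl transferase centre. MRPL16 (ENSG00000166902, chromosome 11) was at 37.2, 36.3 and 39.4 FPKM in NC replicates 1, 2 and 3 against 26.8, 26.7 and 28.2 FPKM in the same replicates of shALKBH3. The groups stood clear of each other, and the spread within each was small. The mean went from 37.7 ± 1.59 to 27.2 ± 0.808 FPKM (SD, n = 3 and 3), which is -0.45 on the log2 scale (SE 0.0729, limma adjusted p = 0.046). It has 1 listed transcript. The call was lost without any 1 library (adjusted p from 0.082 without NC replicate 2 to 0.17 without NC replicate 1, and 0.14, 0.12, 0.16 and 0.16 without NC replicate 3 and shALKBH3 replicates 1, 2 and 3), although the log2 change stayed between -0.48 and -0.42. It was also lost with equal library sums (0.079), after a correction for transcript length (0.11), with the most abundant transcript per gene (0.058) and without the variance trend (0.075), and over all alternatives the adjusted p ran from 0.021 to 0.30.

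**Figure D2:**
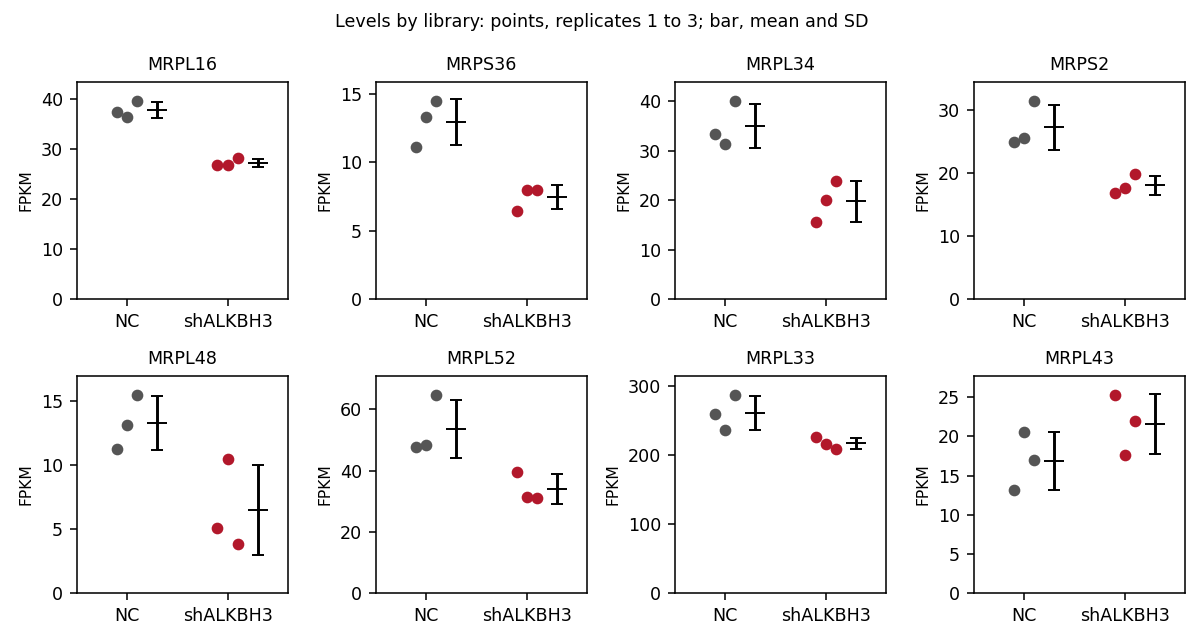
FPKM (vertical axes, from 0) of 8 genes in the 3 NC and 3 shALKBH3 libraries, points being replicates 1 to 3 and the bar their mean and SD. The groups of MRPL16, MRPS36, MRPL34, MRPS2, MRPL48, MRPL52 and MRPL33 do not overlap, while those of MRPL43 do. The 8 genes do not represent the family, in which the groups overlapped in 47 of 78 genes. In 31 of the 78 every knockdown library lay below every control, against 12.0% of all genes. MRPL30 and MRPL36, also among the lowest differences, have overlapping groups and are not shown. MRPS2 was added after its values had been seen.

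Among large subunit genes, the lowest difference was that of MRPL48, which encodes a protein with no bacterial counterpart. MRPL48 (chromosome 11) was at 11.3, 13.1 and 15.5 FPKM in NC and 5.11, 10.5 and 3.85 FPKM in shALKBH3. The second knockdown library lay close under the controls and the other two far below (log2 -1.02, SE 0.324, limma adjusted p = 0.20). The spread came from 1 transcript of 1536 nucleotides, listed at 6.53, 9.09 and 8.05 FPKM in NC and at 0.00916, 4.63 and 0.0392 FPKM in shALKBH3. The log2 difference of that transcript was -2.29, against -0.22, 0.60 and -0.14 in the others that reached an average of 1 FPKM. The low value of the gene thus rests largely on 1 transcript. How fragments were divided among the transcripts of MRPL48 bears on these values and could not be checked.

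MRPL34, a relative of a small bacterial large-subunit protein, was at 33.4, 31.4 and 39.9 FPKM in NC and 15.6, 20.0 and 23.8 FPKM in shALKBH3. The groups did not overlap (log2 -0.80, SE 0.171, limma adjusted p = 0.093). Its exons overlap those of ABHD8, so its level is uncertain where fragments were assigned without strand. MRPL52, with no bacterial counterpart, was at 47.6, 48.5 and 64.5 FPKM against 39.6, 31.5 and 31.1 FPKM, again without overlap (log2 -0.63, adjusted p = 0.13).

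MRPL30 and MRPL36, relatives of bacterial L30 and L36, had differences of similar size with overlapping groups. MRPL30 was at 10.8, 9.19 and 27.8 FPKM in NC and 8.46, 7.33 and 9.48 FPKM in shALKBH3, so NC replicate 3 alone stood high (log2 -0.69, adjusted p = 0.41, and log2 -0.23 without that library). MRPL36 was at 48.4, 20.3 and 58.5 FPKM in NC and 30.8, 25.0 and 18.5 FPKM in shALKBH3, with NC replicate 2 inside the range of the knockdown libraries (log2 -0.65, adjusted p = 0.45). For MRPL36 the log2 difference was -1.10 without NC replicate 2 and -0.36 without NC replicate 3.

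The 4 most abundant large subunit genes had log2 differences from -0.41 to -0.20, on either side of the large subunit median of -0.26. MRPL33, whose product is a relative of bacterial L33, was at 259, 237 and 287 FPKM in NC and 226, 216 and 210 FPKM in shALKBH3. The groups did not overlap (log2 -0.26, adjusted p = 0.22). MRPL51, with no bacterial counterpart, was at 117, 107 and 122 FPKM against 109, 93.4 and 97.9 FPKM, and its groups overlapped (log2 -0.20, adjusted p = 0.32). MRPL12, the stalk protein that meets the translation factors, was at 59.9, 61.0 and 72.1 FPKM against 54.4, 42.9 and 47.5 FPKM, without overlap (log2 -0.41, adjusted p = 0.18). MRPL37 was at 65.6, 65.1 and 55.3 FPKM against 44.5, 57.0 and 49.0 FPKM, and NC replicate 3 fell within the range of the knockdown (log2 -0.30, adjusted p = 0.28).

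At the other end of the order lay 5 large subunit genes. MRPL43 was at 13.1, 20.5 and 17.0 FPKM in NC and 25.2, 17.6 and 22.0 FPKM in shALKBH3, and the groups overlapped (log2 0.35, SE 0.195, limma adjusted p = 0.41, and log2 from 0.19 without NC replicate 1 to 0.49 without NC replicate 2). MRPL43 shares exon bases with TWNK, which is also listed. MRPL49 varied widely between replicates, from 1.51 to 9.69 FPKM in NC and from 3.29 to 9.57 FPKM in shALKBH3 (log2 0.12, SE 0.595), and its sign changed with the transcript used. MRPL42, MRPL9 and MRPL17 had log2 differences of 0.11, 0.05 and 0.04 (adjusted p from 0.75 to 0.90). MRPL42 has been named in both subunit series and lies in the large subunit, and its difference was -0.10 after the correction for transcript length, its transcripts being the longest of the family.

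Among small subunit genes none passed limma, with 10 of 29 lower (8.15% of all genes) and 0 higher (8.98% of all genes) at an unadjusted p under 0.05. MRPS36 had the lowest difference, and its product is now known as a part of the 2-oxoglutarate dehydrogenase complex rather than of the ribosome. MRPS36 (chromosome 5) was at 11.1, 13.3 and 14.5 FPKM in NC and 6.48, 8.01 and 7.99 FPKM in shALKBH3. The groups did not overlap (log2 -0.71, SE 0.134, adjusted p = 0.071). GENCODE holds 5 pseudogenes named after MRPS36, so fragments may have been shared with copies. MRPS2, the relative of bacterial S2, was chosen after its values were seen and was at 25.0, 25.5 and 31.4 FPKM against 16.8, 17.7 and 19.8 FPKM, without overlap (log2 -0.56, adjusted p = 0.092). Its 2 listed transcripts changed places between libraries. One was at 1.39, 14.5 and 30.9 FPKM in NC and 16.6, 0.0777 and 19.8 FPKM in shALKBH3. The other was at 23.6, 11.1 and 0.498 FPKM against 0.199, 17.6 and 0 FPKM. With the most abundant transcript alone the log2 difference was -0.52 (limma adjusted p = 0.90).

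The most abundant small subunit genes were MRPS21, MRPS15, MRPS24 and MRPS35, of which MRPS35 alone has no bacterial homologue. MRPS21 was at 71.0, 56.0 and 70.6 FPKM in NC and 58.4, 53.4 and 54.3 FPKM in shALKBH3 (log2 -0.24, adjusted p = 0.34), and GENCODE holds 8 pseudogenes named after it. MRPS15 was at 62.0, 53.9 and 60.9 FPKM against 53.4, 54.6 and 61.1 FPKM (log2 -0.06, adjusted p = 0.74). In both genes a library of one group lay inside the range of the other. MRPS24 was at 48.9, 65.1 and 58.5 FPKM against 39.4, 36.6 and 49.9 FPKM (log2 -0.45, adjusted p = 0.23), and shares exon bases with the readthrough gene URGCP-MRPS24. For MRPS35 the log2 difference was -0.22 (adjusted p = 0.57), and for MRPS14, where it was highest among small subunit genes, 0.03 (adjusted p = 0.92). The value of MRPS35 was -0.045 without shALKBH3 replicate 3 and -0.34 without shALKBH3 replicate 2.

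The relatives of bacterial S18 exist as 3 genes whose products take different places: MRPS18A lies in the large subunit, and MRPS18B and MRPS18C in the small one. MRPS18A was at 21.3, 18.5 and 27.9 FPKM in NC and 19.4, 14.5 and 13.9 FPKM in shALKBH3 (log2 -0.47, adjusted p = 0.29). MRPS18B was at 28.5, 30.3 and 34.9 FPKM against 29.4, 23.3 and 25.2 FPKM (log2 -0.26, adjusted p = 0.34). MRPS18C was at 24.8, 24.9 and 26.0 FPKM against 22.4, 22.7 and 21.5 FPKM (log2 -0.18, adjusted p = 0.29). The groups overlapped in MRPS18A and MRPS18B and stood apart by a narrow margin in MRPS18C, and no test compared the 3 genes with each other. MRPS30, another gene with a small subunit name and a large subunit place, had a log2 difference of -0.17 (adjusted p = 0.37).

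The difference between large and small subunit genes was small, and its sign depended on the measure. The median log2 difference was -0.26 in the 49 large subunit genes and -0.23 in the 29 small subunit genes. Of these, 43 and 27 were negative, against 51.3% of all genes. In 19 large and 12 small subunit genes the knockdown libraries lay wholly below the controls, against 12.0% of all genes. Taken per library, the large subunit median minus the small subunit median of log2 deviations from each gene's mean was 0.002 ± 0.0196 in NC against 0.008 ± 0.0183 in the knockdown (SD, n = 3 and 3). After each library was corrected for transcript length, that quantity was -0.027, 0.018 and -0.058 in NC and 0.033, 0.055 and 0.013 in shALKBH3 replicates 1, 2 and 3. The means were then -0.023 ± 0.038 and 0.034 ± 0.021, and the groups overlapped through NC replicate 2. Summed FPKM of large subunit genes were 2.24 ± 0.0174 times those of small subunit genes in NC and 2.22 ± 0.0954 times in shALKBH3. That ratio was 2.27 and 2.28 in shALKBH3 replicates 1 and 2 and 2.11 in replicate 3, and from 2.23 to 2.26 in NC. Placing MRPS18A and MRPS30 in the large subunit and leaving MRPS36 out gave medians of -0.26 for 51 and -0.22 for 26 genes.

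By origin, the 48 genes with a bacterial homologue had a median log2 difference of -0.26. Of these, 45 were negative (51.3% of all genes) and 18 lower at an unadjusted p under 0.05 (8.15% of all genes). The 29 ribosomal genes without a bacterial homologue had a median of -0.21, with 24 negative and 8 lower at that level. In the large subunit by place the medians were -0.27 and -0.21, and in the small subunit -0.24 and -0.21. After the correction for transcript length the medians were -0.16 with a bacterial homologue and -0.14 without. Whether the origins differ was not tested.

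**Figure D3:**
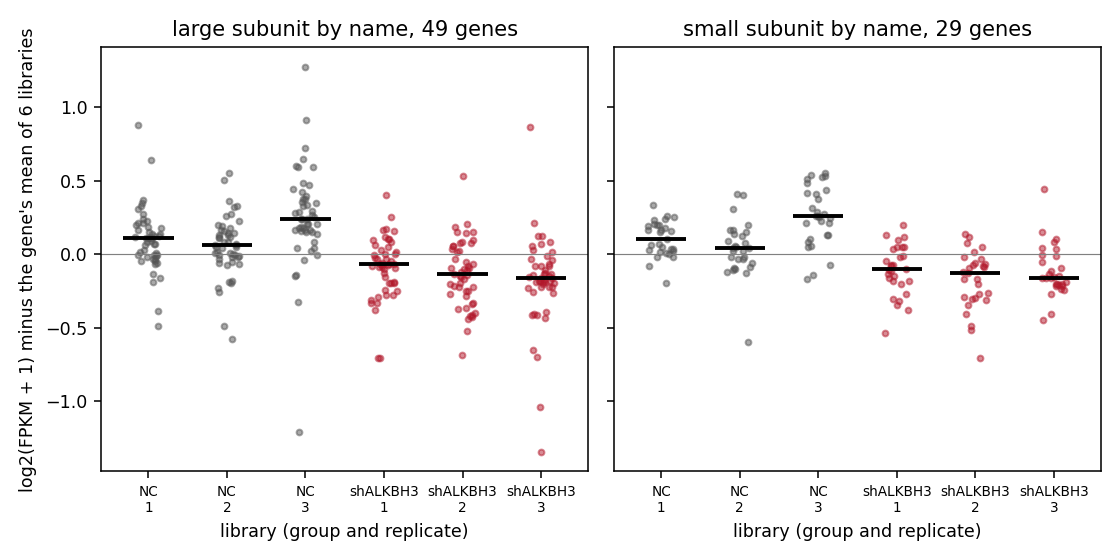
Deviation of each gene's log2(FPKM + 1) from its own mean over the 6 libraries (vertical axis) in each library (horizontal axis), large subunit genes on the left and small on the right, points being genes and bars medians. In both panels the NC medians lie above 0 with replicate 3 highest at 0.24 and 0.26, and the shALKBH3 medians lie below 0.

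The libraries did not contribute evenly. The 78 genes summed to 2491, 2372 and 2763 FPKM in NC replicates 1, 2 and 3 and to 2153, 2068 and 2056 FPKM in those of shALKBH3. Every knockdown sum was below every control sum, and the mean sum fell by 17.7% while the listed total fell by 6.36%. As a share of the listed FPKM the family made up 0.694%, 0.697% and 0.765% in NC and 0.647%, 0.634% and 0.617% in shALKBH3. NC replicate 3 held the highest value of 52 of the 78 genes, and shALKBH3 replicates 1, 2 and 3 the lowest value of 18, 26 and 24. Without NC replicate 3 the median log2 difference was -0.19, 69 of 78 genes were negative (51.5% of all genes) and 14 were lower at an unadjusted p under 0.05 (5.17% of all genes).

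Transcript length moved with these values, and its part in the differences was not tested beyond the correction that follows. The family is short, with a median transcript length of 1275 nucleotides (1182 in large and 1500 in small subunit genes) against 2882 over all genes tested, and across all genes the log2 difference followed length (Spearman rho = 0.35 over 10475 genes, which are not independent). NC replicate 3 and shALKBH3 replicate 2 stood furthest apart in that trend, with a rho of -0.41 and 0.32 between length and deviation from the mean over libraries. In the shortest length quartile of all genes, from 207 to 1812 nucleotides, the median log2 difference was -0.15 over 2619 genes, of which 72.7% were negative. The 61 mitochondrial ribosomal protein genes in that quartile had a median of -0.26, with 56 negative and 23 lower at an unadjusted p under 0.05, where 16.0% of the genes in the quartile were. In the next quartile, up to 2881 nucleotides, the 12 family genes had a median of -0.21 against -0.05 over all its genes. Only 5 genes of the family were longer. Within the family rho between length and log2 difference was 0.19 over 78 genes, which share libraries. Between GC content and log2 difference, rho was -0.308 over all genes and -0.265 within the family.

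**Figure D4:**
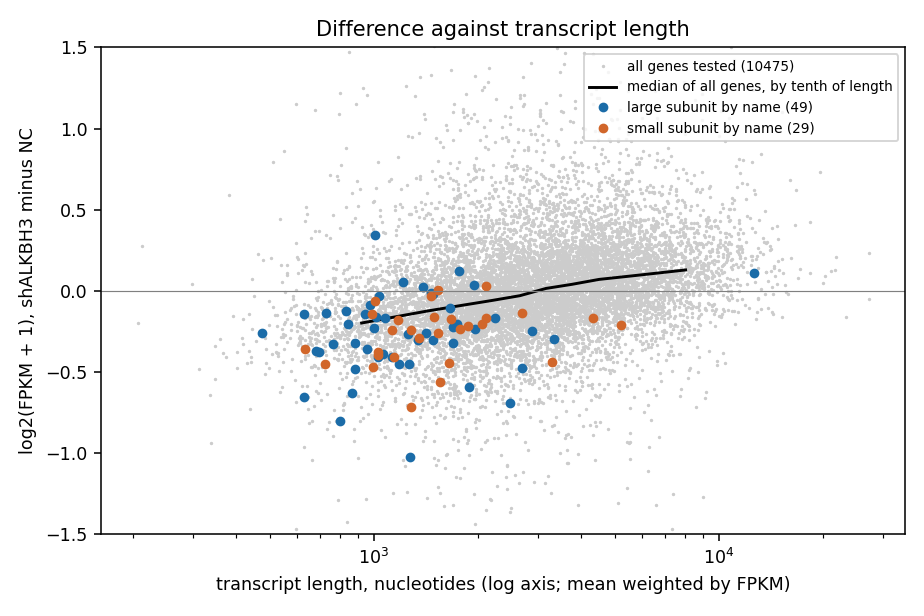
Log2 difference (vertical axis) against transcript length in nucleotides (horizontal log axis) for all genes tested in grey, their median in 10 length bins of equal gene number as a line, and the 49 large and 29 small subunit genes in colour. Of the coloured points 70 lie below 0 and 61 in the shortest length quartile, and 51 grey genes beyond 1.5 on either side are not shown.

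With the trend with length removed from each library, the median of the family was -0.15 beside -0.02 over all genes, with 60 of 78 negative where 53.8% of all genes were. At an unadjusted p under 0.05 there were then 17 lower (8.08% of all genes) and 1 higher, MRPL43 (8.09% of all genes), and 0 of 78 passed limma's adjusted threshold (0.411% of all genes were lower). The medians of large and small subunit genes were -0.14 and -0.16 after that correction, the reverse of their order before it. With GC content corrected as well they were -0.14 and -0.19, and MRPL16 passed again (log2 -0.35, adjusted p = 0.049, where 0.706% of all genes were called lower). The family median was then -0.17, with 60 of 78 negative (53.4% of all genes) and 22 lower at an unadjusted p under 0.05 (8.69% of all genes). With length alone corrected, MRPL33, the shortest, went from -0.26 to -0.03, MRPS36 from -0.71 to -0.59 and MRPL34 from -0.80 to -0.62. With library sums made equal, the family median was -0.15, that over all genes 0.07 and 64 of 78 genes were negative (39.3% of all genes). Without NC replicate 3 and shALKBH3 replicate 2 together, a choice made after seeing the data, the median was -0.19, with 68 of 78 negative (50.4% of all genes) and 13 lower at an unadjusted p under 0.05 (4.20% of all genes).

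Single transcripts gave a similar picture with more spread. Of the 161 transcripts of these genes that reached an average of 1 FPKM, 128 had a negative and 33 a positive difference, with a median of -0.22 beside -0.01 over 19698 transcripts. None passed limma (smallest adjusted p = 0.14, where 0.122% of all transcripts were lower), with 24 lower at an unadjusted p under 0.05 (4.75% of all transcripts) and 1 higher (4.99%). In MRPS7, the relative of bacterial S7, chosen after its values were seen, transcripts of one gene differed in sign. Its main transcript was at 17.2, 14.9 and 19.2 FPKM in NC and 20.3, 21.8 and 20.4 FPKM in shALKBH3 (log2 0.28, adjusted p = 0.53). A minor one of 1717 nucleotides was at 3.53, 6.41 and 5.36 FPKM against 1.57, 0.848 and 1.20 FPKM (log2 -1.45, adjusted p = 0.14). The sum over the transcripts of MRPS7 had a log2 difference of -0.29. The 23 genes with 1 listed transcript had a median of -0.17 and the 55 with several -0.26.

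Copies and overlapping genes were present for part of the family. For 34 genes GENCODE holds at least 1 pseudogene of their name, and these had a median log2 difference of -0.22 against -0.28 in the other 44. Exons of 28 genes overlap those of another listed gene, and their median was -0.25 against -0.24 in the other 50. Of the genes described above, MRPL30 (with a gene listed under a clone name), MRPL33 (BABAM2), MRPL51 (NCAPD2), MRPL37 (CYB5RL and SSBP3), MRPL49 (FAU and SYVN1), MRPS2 (C9orf116), MRPS7 (GGA3 and MIF4GD), MRPS14 (CACYBP) and MRPS18C (ABRAXAS1) also have such overlaps, and their levels are uncertain to that extent. How the authors' counting handled such fragments is not given in the sources used here.

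Other genes of mitochondrial translation showed 2 falls. Lists written for these partners held 52 names, of which 49 were tested (1 was an older name of MTG2 and 2 were the ribosomal RNAs), and 37 of the 49 had a negative difference, against 51.3% of all genes. The share of all genes called was 0.477% lower and 1.28% higher. TACO1, an activator of the translation of the mitochondrially encoded COX1, was at 18.5, 15.5 and 17.5 FPKM in NC and 10.8, 11.0 and 11.2 FPKM in shALKBH3. TACO1 fell by 0.59 on the log2 scale (SE 0.0928, limma adjusted p = 0.042). NOA1, a GTPase of mitochondrial ribosome assembly, was at 17.0, 17.9 and 17.5 FPKM against 12.4, 12.1 and 12.7 FPKM, and fell by 0.46 (SE 0.0751, limma adjusted p = 0.047). Both genes had groups that stood well apart, and both calls were lost without any 1 library (adjusted p from 0.058 to 0.16 for TACO1 and from 0.0996 to 0.17 for NOA1). With equal library sums, the most abundant transcript or no variance trend neither passed (adjusted p from 0.056 to 0.063 for TACO1 and from 0.063 to 0.11 for NOA1). TACO1 also missed the threshold after the length correction (0.063) and the length and GC correction (0.090), where NOA1 passed (0.028 and 0.023).

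Of the 28 tested assembly factors 1 fell, 0 rose and 22 were negative, with a median of -0.23 beside -0.01 over all genes and the shares just given. TFB1M, which methylates the small ribosomal RNA, was at 18.1, 18.2 and 17.9 FPKM in NC and 12.2, 14.0 and 12.1 FPKM in shALKBH3 (log2 -0.47, adjusted p = 0.071). The list of translation factors and activators has 16 genes and is loosely drawn, since it also holds PNPT1. Of these 16 genes 1 fell, 0 rose and 11 were negative, with a median of -0.08. The other 5 had positive differences. Among them PNPT1, the mitochondrial polynucleotide phosphorylase, also known as an interferon-induced gene, was at 13.3, 19.6 and 12.8 FPKM against 29.8, 31.7 and 52.5 FPKM (log2 1.24, adjusted p = 0.090). The 5 ribosomal proteins whose names do not begin with MRP had a median of -0.23 with 4 negative, and none passed limma. At an unadjusted p under 0.05, 1 of these was lower and 0 higher, against 8.15% and 8.98% of all genes. At that level 5 assembly factors were lower and 0 higher. In the list of translation factors and activators 3 genes were lower and 2 higher, PNPT1 among the latter. Of the 5 ribosomal proteins, CHCHD1 and GADD45GIP1 had log2 differences of -0.34 and -0.36 (adjusted p = 0.29 and 0.34), and GADD45GIP1 was at -0.20 without NC replicate 3. The ribosomal RNAs MT-RNR1 and MT-RNR2 were not among the listed transcripts.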

How the data were processed

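The authors deposited FPKM per transcript for 6 libraries, per the file headers. The submitters' processing notes name hg19, HTSeq 0.6.0 and DESeq2 without roles. For the aligner, the annotation and the tool behind the FPKM, no name is given in the sources used here. A table holds 28900 transcripts, of which 28796 (99.6%) matched GENCODE release 29 by identifier without version or lift suffix and 104 were left out. In every listed transcript the higher group mean is at least 0.5 FPKM. FPKM were summed to 11387 genes. The 10475 with a mean of at least 1 FPKM were tested with limma 3.58.1 in R 4.3.3 on log2(FPKM + 1), with a variance trend, two-sided. The fit was also run on simulated data with independent noise per gene and no trend with length or GC content. The changes put in were larger than the family median, so that run does not cover such trends or such small changes. Length is the FPKM-weighted mean over listed transcripts. The length correction subtracted a loess curve (span 0.5) per library. Tables and plots used Python 3.11.15, pandas 2.3.3, numpy 2.4.6, scipy 1.17.1 and matplotlib 3.10.9.

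Genes named one by one are ALKBH3, members past the threshold, the 6 lowest and 6 highest differences, the 4 most abundant of each subunit, the S18 relatives, MRPS30, MRPS36, MRPL42, and in each partner list those past the threshold and the 2 smallest p-values. MRPS2, MRPS7 and MRPL15 fall outside this rule and were chosen after their values were seen. The members and lists were chosen with earlier results of these data known. No value column lacked a sample. No counts were used, so depth and counting error are unknown.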

Additional observations from a re-analysis of the deposited data

How the results depend on the processing

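The median log2 difference of the 78 genes stayed negative under all 19 alternatives run, from -0.29 to -0.15. Between 60 and 73 of the 78 genes were negative, against 39.3% to 53.8% of all genes. No alternative called a member higher. With the 1 member called lower (MRPL16), the count was 0 with equal library sums, length correction, most abundant transcript, no variance trend, the replicate block or NC replicate 3 and shALKBH3 replicate 2 left out, and 2 with array weights (MRPL15 added). The median was -0.15 both with equal sums and with length correction. Members lower at an unadjusted p under 0.05 numbered 14 with equal sums (4.5% of all genes) and 17 with length correction (8.08% of all genes). They numbered 17 with the most abundant transcript (6.78% of all genes) and 13 with that pair of libraries left out (4.20% of all genes). In the main fit 27 members and 8.15% of all genes were lower at that level.

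The large minus small subunit difference of -0.03 became 0.016 with length correction, 0.057 with length and GC correction, -0.090 with the most abundant transcript and -0.058 with array weights. Over all genes, 134 higher and 50 lower became 80 and 25 with the most abundant transcript, 320 and 160 with array weights, 17 and 3 with the replicate block and 1 and 0 with the pair of libraries left out, and the lower count was 24 with equal sums and 27 without the trend. Partners called lower, 2, became 1 with either correction and 0 with equal sums, the most abundant transcript, no trend, the block or the pair left out, and 1 partner (PNPT1) was called higher with array weights. The ALKBH3 change was -1.24 with the most abundant transcript (adjusted p = 0.063), -1.24 with the block (0.098) and -1.28 with the pair left out (0.13).

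Leaving out single libraries gave 39 to 87 genes higher and 9 to 22 lower, with 0 members and 0 partners called lower. Members lower at an unadjusted p under 0.05 then numbered 14 to 26 (5.17% to 9.78% of all genes). The median of the members ran from -0.29 to -0.19, the large minus small difference from -0.041 to 0.015 and the ALKBH3 change from -1.32 to -1.17. Signs changed for genes near 0: MRPS15 was 0.029 with equal sums, 0.087 with length correction and 0.082 with length and GC correction, MRPL42 was -0.10 and -0.12 with these corrections, MRPL49 was -0.16 with the most abundant transcript, -0.026 with array weights and -0.20 with the pair left out, and MRPL9 was -0.18 with the pair left out. With single libraries left out, MRPL17 ran from -0.052 to 0.13, MRPL42 from -0.055 to 0.21, MRPL49 from -0.45 to 0.59, MRPL9 from -0.10 to 0.20 and MRPS14 from -0.061 to 0.14. Replicate numbers pair the libraries by number alone: deviations of same-numbered libraries correlated at -0.088, 0.075 and -0.012, and not every library correlated best with its own number. Fewer samples or residual degrees of freedom enter the fits with left-out libraries and the block; otherwise the cause was not tested. Depth is unknown.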
